A study of Sus scrofa domesticus with 150 samples.

Results

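The genes described here encode growth factors and receptors of the FGF, HGF and PDGF systems: FGF2, FGF7, FGF10, FGFR2, HGF, MET, PDGFA, PDGFB, PDGFRA and PDGFRB. They were chosen by name, from the symbol that the count table gives for a gene or, where that is empty, from its protein match. By this rule 9 of the 10 genes were found among the 30461 genes of the table, and FGF7 was not. Poly-A RNA was sequenced from 150 samples of skin and wound tissue of 6 female Yorkshire-mix pigs, labelled ID1323 to ID1328, which all carried full-thickness excisional wounds under Telfa Clear and Tegaderm dressings and had topical antibiotic on the biopsy sites. The age of the animals was not given in the sources used here. The 6 samples of day 0, 1 per animal, were the whole excised skin. After wounding, 1 biopsy of the edge and 1 of the center were taken from each of 72 wounds on 14 days. These gave 6 wounds per day on each sampled day up to day 13, which were days 1 to 7 and days 9, 11 and 13, and 3 wounds per day on days 15, 16, 19 and 21, which makes 29 states of day and location. Days 1, 3, 5, 7, 11, 15 and 21 came from animals ID1323 to ID1325 and the other wound days from ID1326 to ID1328, so neighbouring days are often those of different animals. Total counts per sample lay between 13133379 and 24895572, and levels are given as CPM, the counts of a gene scaled to the total of its library.

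As background, fibroblast growth factors bind heparan sulfate and signal through tyrosine kinase receptors. FGF7 and FGF10 are made by mesenchymal cells and act on the epithelial splice form of FGFR2, while FGF2 acts mainly on fibroblasts and endothelium. HGF is secreted by mesenchymal cells as an inactive precursor and is cleaved outside the cell, and its receptor MET is carried by keratinocytes and other epithelia. PDGF chains pair into dimers that recruit fibroblasts and pericytes, with PDGFRA typical of fibroblasts and PDGFRB of pericytes and fibroblasts. In skin wounds all 3 systems are known for the exchange between dermis and regrowing epidermis.

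The genes carry the identifiers and contig positions of the deposited table, whose genome build is not given in the sources used here. FGF2 (ENSSSCG00025036939) lies on contig LUXX01057127.1 at 1244476 to 1309477 on the plus strand. FGF10 (ENSSSCG00025046747) is on LUXX01052732.1 at 915679 to 995228, minus strand. FGFR2 (ENSSSCG00025046247) is on LUXX01073386.1 at 1588090 to 1990581, minus strand. HGF (ENSSSCG00025049967) spans 304341 to 379771 on the plus strand of LUXX01056639.1, and MET (ENSSSCG00025071107) spans 3018927 to 3134361 on the minus strand of LUXX01102040.1. PDGFA (ENSSSCG00025003107) is found at 569495 to 589657 on LUXX01000327.1, plus strand, and PDGFB (ENSSSCG00025005799) at 235682 to 256708 on LUXX01012407.1, minus strand. The receptor PDGFRA (ENSSSCG00025003513) covers 2043544 to 2097315 on LUXX01010885.1, plus strand. PDGFRB (ENSSSCG00025065622), which was named by its protein match, covers 4322010 to 4359520 on LUXX01078624.1, minus strand. All 9 are annotated as protein-coding.

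FGF7, the keratinocyte growth factor, has no row of its own name. One row named GALK2 (ENSSSCG00025014179, LUXX01025872.1 at 267412 to 330167, minus strand) has FGF7 as its protein match. In the RefSeq annotation of another pig assembly, FGF7, FAM227B and the galactokinase gene GALK2 lie together on chromosome 1. Reads of FGF7 and GALK2 cannot be told apart in this row, so it is called the row named GALK2, is given beside the members and is counted with none of them.

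Samples of the wound edge were rich in keratinocyte transcripts and those of the center were poor in them until the last days. The summed level of the keratinocyte list (11 of 12 genes found) was higher at the edge in 70 of 72 wounds, with a median of 46896 CPM at the edge (range 197 to 78867), 312 CPM in the center (range 100 to 47424) and 55221 CPM on day 0 (range 32669 to 79612). None of the marker genes found was at 0 in all samples. In the center the list had a median of 224 CPM on day 7, 11003 on day 15 and 44006 on day 21. Correlation with their replicates set 8 libraries apart. The library labelled as day 3 center of wound G of ID1324 had 31078 CPM of the keratinocyte list, like the edge of that wound with 34002 CPM, and the one labelled as day 3 edge of wound G of ID1325 had 197 CPM, like the center of that wound with 106 CPM, so both go against their labels. In 3 center libraries (day 2, wound L of ID1326; day 6, wound B and day 9, wound E, both of ID1328) a list of skeletal muscle genes reached 37145 to 85914 CPM, against a median of 12 CPM over all center samples, and the highest edge library had 45917 CPM of it without standing apart. The others were a day 11 center library of ID1323 with 15054 CPM of the keratinocyte list, a day 5 edge library of ID1325 and the day 0 library of ID1324, which had 25.5 CPM of a hair follicle list. Leaving out the 8 libraries ended 7 of the members' calls, all against day 0 and named below, and added calls on day 3. In bulk tissue, fewer cells of a type and less RNA per cell cannot be told apart.

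Averaged over the 14 days, the receptors FGFR2 and MET were higher at the wound edge, and FGF2, HGF, PDGFA, PDGFB, PDGFRA and PDGFRB were higher in the wound center. Mean log2 fold changes of edge minus center were 1.56 ± 0.10 (SE) for MET and 1.16 ± 0.08 for FGFR2, with adjusted p of 8.29e-29 and 2.64e-25 (edgeR quasi-likelihood test over 144 wound samples, Benjamini-Hochberg over 17734 genes). They were -1.12 ± 0.09 for PDGFRA (adjusted p = 5.62e-22), -1.07 ± 0.09 for HGF (7.11e-20), -0.82 ± 0.06 for PDGFRB (7.16e-26), -0.75 ± 0.05 for PDGFB (1.79e-25), -0.67 ± 0.06 for PDGFA (6.70e-19) and -0.59 ± 0.12 for FGF2 (1.26e-05). FGF10 did not pass, with -0.32 ± 0.22 (adjusted p = 0.202). In 13 other settings, among them each set of animals alone and the fit without the libraries apart, the 8 genes were called each time and FGF10 never. None of these settings took the animal as the unit, so the samples of 6 animals counted as separate or were paired by wound. These p-values therefore partly measure the spread within animals. The row named GALK2 had -1.28 ± 0.11 (1.50e-20). Of all genes tested, 30.5% were higher at the edge and 36.8% higher in the center, so a difference averaged over days was common in the table. Each direction was that of the means of 6 of 6 animals, FGF10 included. It was shown by 71 of 72 wounds for FGFR2, 68 for MET, 70 each for PDGFA and PDGFB, 69 for PDGFRA, 68 for PDGFRB, 64 for HGF, 51 for FGF2 and 42 for FGF10.

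**Figure D1:**
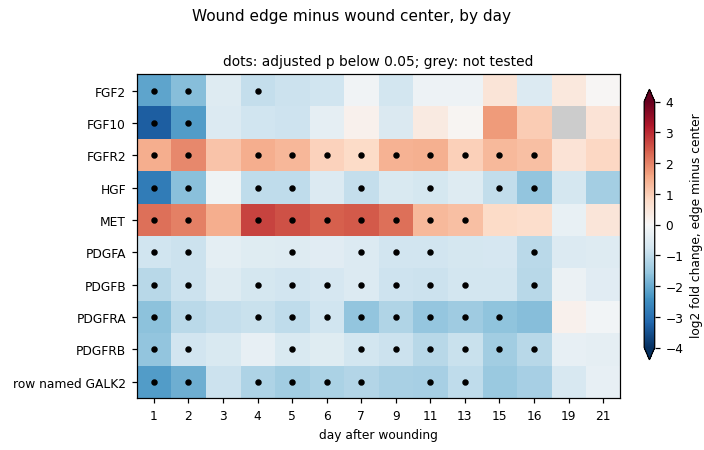
Log2 fold change of wound edge minus wound center (color) for each gene (rows) on each of 14 days (columns), with a dot where the adjusted p was below 0.05. FGFR2 and MET form red rows apart from MET on day 19, HGF and the PDGF genes blue ones apart from PDGFRA on day 19, and no gene has a dot on days 3, 19 and 21.

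Tested within single days, the 9 genes gave 125 results, of which 20 were higher at the edge and 49 higher in the center. Over all genes and days, 12.5% of tests were higher at the edge and 11% in the center. The median log2 fold change of the members' results was -0.54, against -0.01 over all genes. With the wound as replicate block, which pairs edge and center, 5 of these 69 calls were lost, each named below, and as many others gained. All 20 calls at the edge belonged to FGFR2, with 11 days, and MET, with 9 days. Calls in the center came to 10 days each for PDGFB and PDGFRA, 9 for PDGFRB, 8 for HGF, 7 for PDGFA, 3 for FGF2 and 2 for FGF10. On days 3 and 19 no gene of the table was called by edgeR as fitted here, with 1667 and 479 genes at an unadjusted p below 0.05. DESeq2 called 1 gene on day 3, and 13 higher and 1 lower at the edge on day 19. Other edgeR fits of day 3 called 910 genes higher and 306 lower at the edge with all samples in one fit, and 549 and 9 without replicate 4, which holds the library of wound G of ID1324, while the fit with the wound as replicate block called 0. On day 19 the replicate block called 2. Without the 2 libraries of day 3 that stood apart, 1919 of 14548 genes were higher at the edge and 711 in the center on that day. Both libraries have keratinocyte levels that go against their labels, so leaving them out favours a difference between locations. Called were 7 of the 9 members: MET with 2.22 ± 0.28 (adjusted p = 0.000399), FGFR2 with 1.58 ± 0.47, FGF10 with -1.16 ± 0.34, FGF2 with -0.90 ± 0.24, PDGFRB with -0.79 ± 0.20, PDGFB with -0.51 ± 0.16 and PDGFA with -0.46 ± 0.13 (adjusted p up to 0.0499). HGF (-0.60 ± 0.22, adjusted p = 0.084) and PDGFRA (-1.14 ± 0.38, adjusted p = 0.06) were not called.

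Whether the edge to center difference was the same on all 14 days was tested in one fit over all wound samples. It varied with day for 6 of 9 members, against 30.7% of all genes: MET (adjusted p = 3.91e-06), HGF (0.000113), PDGFRB (0.00101), FGF2 (0.0145), PDGFRA (0.0245) and FGF10 (0.0291). FGFR2 (0.316), PDGFB (0.316) and PDGFA (0.757) did not pass. The calls of FGF2, FGF10 and PDGFRA were lost when replicate 1 or replicate 2 of every state was left out, those of FGF2, PDGFRA and PDGFRB without replicate 3, that of FGF10 without replicate 4, and those of FGF10 and PDGFRA without replicate 5. Within animals ID1323 to ID1325 alone the call of PDGFRA was lost (0.132). Within animals ID1326 to ID1328 alone, MET was the one member called.

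Against day 0 skin, the wound center was higher in 81 and lower in 28 of 126 results of the members, and the wound edge was higher in 52 and lower in 20 of 126. Over all genes, 29.8% of the tests of the center were higher and 29.9% lower, and at the edge 22.5% were higher and 20.7% lower. With the animal as replicate block, 9 of the members' 109 calls in the center and 14 of their 72 at the edge were lost, and each is named below. The 28 lower calls in the center were those of FGFR2 and MET on all 14 days. HGF, PDGFRA and PDGFRB were higher in the center on all 14 days, PDGFA and PDGFB on 13 (not on day 21), FGF2 on 8 and FGF10 on 5. All these comparisons share the 6 samples of day 0.

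**Figure D2:**
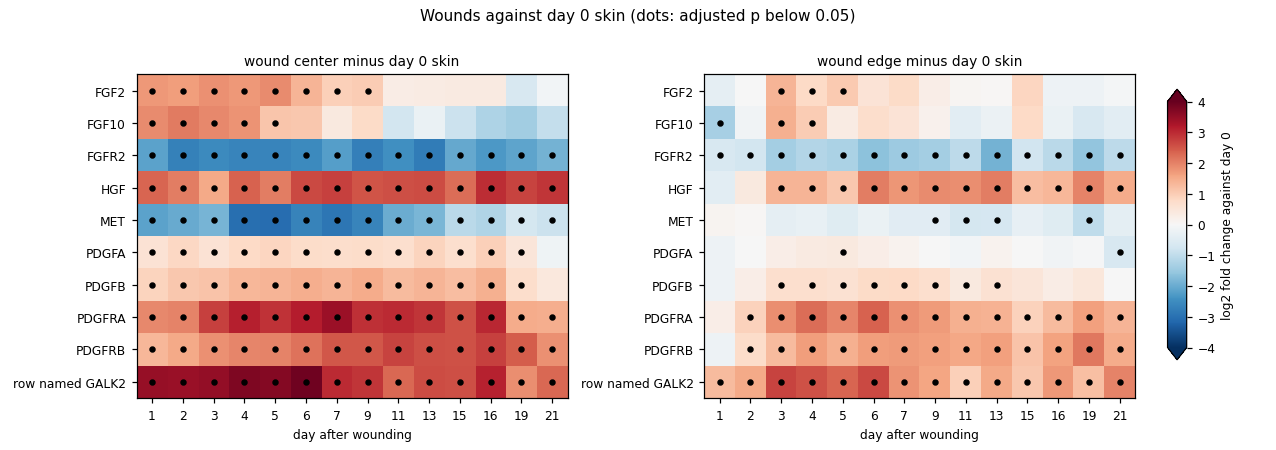
Log2 fold change against day 0 skin (color) in the wound center (left) and at the wound edge (right) for each gene and day, with a dot where the adjusted p was below 0.05. In the center FGFR2 and MET are blue on all 14 days, while HGF, PDGFRA and PDGFRB are red on all 14 days.

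FGF2, a mitogen of fibroblasts and endothelium, was high in the wound center in the first days. On day 0 its level was 6.34 to 16.4 CPM with a median of 13.1. The center of day 1 had 31.7 to 65.9 CPM with a median of 41.4, and the edge 5.24 to 15.5 with a median of 10.8. Every center sample of day 1 was above every edge sample and every day 0 sample. The log2 fold change of edge minus center was -2.12 ± 0.29 on day 1 (adjusted p = 0.000219), -1.69 ± 0.21 on day 2 (3.50e-05) and -0.94 ± 0.27 on day 4 (0.0199). The call of day 4 was lost without replicate 2, 4 or 6, with an adjusted p up to 0.0819. Compared with day 0, the center was higher on days 1 to 9, by 0.94 to 1.89 on the log2 scale, and the edge on days 3, 4 and 5, by 1.35, 0.81 and 1.05. The calls of the center on day 9 and of the edge on day 5 were lost without any 1 of 4 and of 3 replicates, and without the libraries apart (adjusted p = 0.0603 and 0.0623). With the animal as block, those of the center on day 9 and of the edge on day 4 were lost (0.23 and 0.0572). The highest mean level was that of the day 3 center, with a median of 51.3 CPM, closely followed by the other early centers within their SD, and the lowest that of the day 19 center, with values of 2.69, 8.56 and 10.6 CPM.

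FGF10, a mesenchymal ligand of FGFR2, had low counts and was high in the center in the first days. Day 0 samples held 2.10 to 8.47 CPM with a median of 4.33. On day 1 the center held 9.85 to 31.0 CPM with a median of 18.2 and the edge 0.582 to 4.82 with a median of 1.64. On day 2 the center held 5.63 to 41.0 CPM with a median of 23.5 and the edge 3.12 to 6.37 with a median of 4.36. Center and edge did not overlap on day 1 and overlapped in their extremes on day 2. The log2 fold change of edge minus center was -3.28 ± 0.51 on day 1 (adjusted p = 0.000404) and -2.24 ± 0.40 on day 2 (0.000803). From day 7 its sign was mixed, with 0.18 ± 0.54 on day 7 (0.819) and 1.70 ± 0.83 on day 15 (0.187). Against day 0 the center was higher on days 1 to 5, by 1.11 to 2.09, and the call of day 5 was lost without the libraries apart (0.0709), without any 1 of 3 replicates and with the animal as block (0.172). At the edge FGF10 was lower on day 1, by -1.34 ± 0.51 (0.0425), and higher on days 3 and 4, by 1.41 ± 0.47 (0.0252) and 1.01 ± 0.37 (0.0354). All 3 edge calls were lost when single replicates were left out (adjusted p up to 0.156), and those of days 3 and 4 also without the libraries apart (0.106 and 0.0617). On day 19 it was not tested between edge and center because its counts did not pass the filter. There its center values were 0, 0.50 and 4.52 CPM and its edge values 0, 0.165 and 7.38 CPM. Across the depths of all 150 libraries, a library at 0 allows up to 0.121 to 0.228 CPM, by counting error alone. The edge value of 0.165 CPM lies within that range.

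The row named GALK2, with FGF7 as protein match, was higher in wounds than on day 0 in all 28 comparisons. It held 7.65 to 13.6 CPM on day 0 with a median of 9.50. In the day 6 center it held 75.2 to 252 CPM with a median of 155, which gave a log2 fold change against day 0 of 3.90 ± 0.30 (adjusted p = 1.51e-07). Every center sample of day 6 was above every day 0 sample. Against day 0 its log2 fold changes ranged from 1.85 to 3.90 in the center and from 0.96 to 2.70 at the edge. Edge minus center was called on 8 days, between -2.22 and -1.02, and the center was higher in 70 of 72 wounds. The calls of days 6, 7 and 13 were lost without single replicates (adjusted p up to 0.163), as were those of the edge against day 0 on days 15 and 16 (up to 0.0836). With the animal as block the calls against day 0 were lost in the center on day 15 and at the edge on days 9, 13, 15, 16 and 19 (0.0506 to 0.213). Which part of this belongs to FGF7 was not tested.

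FGFR2, the receptor of FGF7 and FGF10, was highest in uninjured skin. It held 136 to 261 CPM on day 0 with a median of 220. In the center of day 2 it held 11.5 to 69.4 CPM with a median of 34.3, and at the edge 113 to 154 with a median of 137. Day 2 edge and center did not overlap, and every center sample was below every day 0 sample. The log2 fold change of edge minus center was 1.93 ± 0.33 on day 2 (adjusted p = 0.000608) and was called on 11 days, between 0.78 on day 7 and 1.93. The call of day 7 (0.0212) was lost without replicate 4, 5 or 6. Those of days 15 and 16, with 3 wounds each, were lost without replicate 2 or 3. Against day 0 FGFR2 was lower on all 14 days at both locations, by -2.79 to -1.90 in the center and by -1.89 to -0.63 at the edge, where the call of day 15 was lost without replicate 1 or 3 and with the animal as block (0.0544). From day 1 to day 7 the edge fell by -0.77 ± 0.17 (0.00462), and from day 2 to day 9 by -0.62 ± 0.15 (0.0131, lost without replicate 2). At the edge of day 13 it held 35.8 to 63.4 CPM with a median of 57.7 (-1.89 ± 0.17, adjusted p = 4.75e-06), while the keratinocyte list there had a median of 31856 CPM against 55221 on day 0. A hair follicle list (6 of 7 genes found) had a median of 10795 CPM on day 0 (range 25.5 to 14794), 3.92 at the edge (range 0 to 6568) and 0.816 in the center (range 0 to 2018), and its part in the lower FGFR2 was not tested. Gene counts do not separate the epithelial from the mesenchymal splice form of FGFR2.

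**Figure D3:**
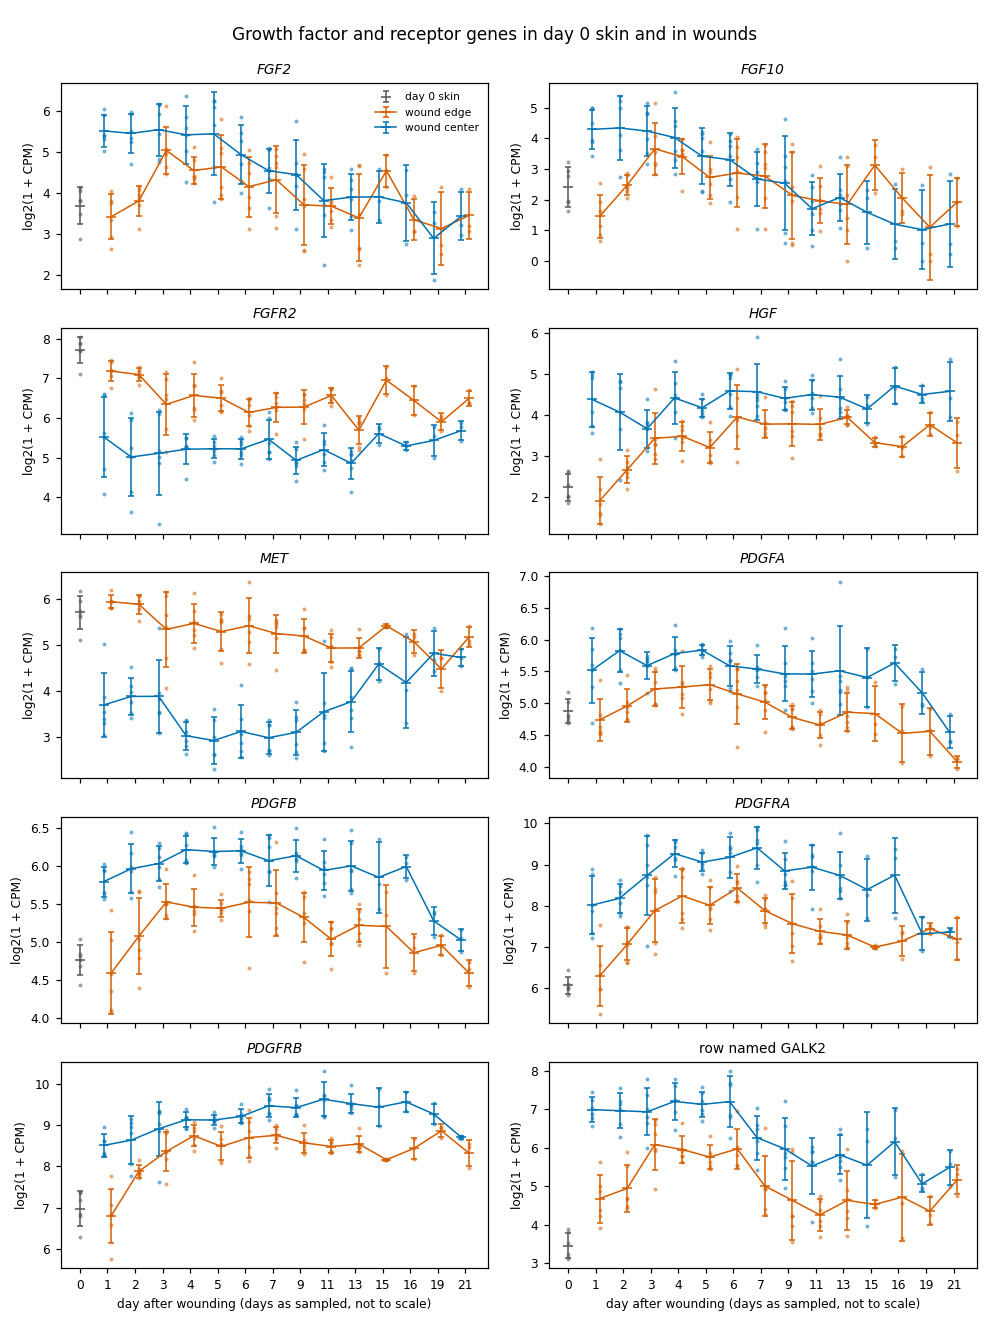
Log2(1 + CPM) of each gene in every sample (points), with the mean and SD of each state (bars), by day after wounding, for day 0 skin, wound edge and wound center. Lines join days of different animals. FGF2 and FGF10 fall from their early levels in the center, and MET dips in the center and rises late but stays below its day 0 mean. The means of PDGFRA and PDGFRB lie above day 0 from day 1 in the center. At the edge that of PDGFRB does so from day 2, and that of PDGFRA from day 1, by a small step not called on that day.

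HGF, the mesenchymal ligand of MET, was higher than day 0 in the wound center from the first day. Day 0 samples held 2.61 to 5.22 CPM with a median of 3.54. In the center of day 1 it held 10.9 to 32.3 CPM with a median of 22.3, and at the edge 1.55 to 6.65 with a median of 2.33. Every day 1 center sample lay above every edge and day 0 sample. Edge minus center was -2.80 ± 0.42 on day 1 (adjusted p = 0.000321) and -1.67 ± 0.34 on day 2 (0.00189). It was called on 8 days, the smallest being -0.71 ± 0.20 on day 11 (0.0126). Calls of days 4, 7, 11, 15 and 16 were lost without 1 or another replicate, with an adjusted p up to 0.238, and those of days 11 and 15 also with the wound as block (0.0525 and 0.0563). Against day 0 the center was higher by 1.51 on day 3 to 2.95 on day 16 (2.93e-05). At the edge HGF was not called on day 1 (-0.43 ± 0.34, adjusted p = 0.311) and day 2 (0.40 ± 0.23, 0.162), and was higher on the 12 later days, by 1.08 to 2.06, of which days 15 and 21 were lost without replicate 3. With the animal as block the edge calls of days 3, 15, 16 and 21 were lost (0.0509 to 0.104). From day 1 to day 7 the edge rose by 2.25 ± 0.33 (0.000349), and from day 2 to day 9 by 1.49 ± 0.27 (0.00277). The center values of these comparisons were 0.40 ± 0.38 (0.424) and 0.43 ± 0.32 (0.358).

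MET showed the reverse arrangement, with low levels in the center that rose late. Day 0 held 33.6 to 71.8 CPM with a median of 51.5. On day 5 the center held 3.89 to 11.2 CPM with a median of 6.06 and the edge 23.3 to 50.3 with a median of 44.6. The 2 locations did not overlap on that day, and the center of day 5 had the lowest mean of the 29 states. Edge minus center reached 2.69 ± 0.20 on day 4 (adjusted p = 2.54e-07), and was called on 9 days up to day 13, where it was 1.22 ± 0.28 (0.00602). The call of day 11 (1.31 ± 0.41, 0.022) was lost without replicate 2, 4, 5 or 6. On day 19 the value was -0.29 ± 0.31 (0.998). The center of day 21 held 22.5, 25.4 and 29.1 CPM and the edge 31.4, 33.1 and 41.9 CPM. In the center MET rose by 2.03 ± 0.22 from day 7 to day 21 (7.22e-05) and by 1.92 ± 0.32 from day 9 to day 19 (0.0036). Over the same days the median of the keratinocyte list in the center went from 224 to 44006 CPM and from 325 to 25297 CPM, and its part in the level of MET was not tested. The center was lower than day 0 on all 14 days, from -3.05 ± 0.25 on day 5 to -0.71 ± 0.25 on day 19 (0.0418). Calls of days 16 and 19 were lost without single replicates (adjusted p up to 0.164), and that of day 19 without the libraries apart (0.0533). Both were lost with the animal as block (0.15 and 0.103). At the edge MET was lower than day 0 on days 9, 11, 13 and 19, by -1.02 to -0.46. That of day 9 (0.0448) was lost without any 1 of 5 replicates, without the libraries apart (0.0594) and with the animal as block (0.0503), and that of day 19 (0.00765) without replicate 1.

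The pair of HGF and its receptor was compared within each library, where the scaling cancels apart from the added 1. The difference of log2(1 + CPM) of HGF minus that of MET was -1.91 at the edge and 0.77 in the center, as means of 6 animals. Edge minus center was -2.68 ± 0.37 (SD over 6 animals) and below 0 in 6 of 6 animals (p = 0.0312 by an exact permutation of signs over animals, two-sided, which cannot go lower with this number; adjusted p = 0.0417 over 4 ratios). HGF alone had an edge minus center mean of -0.95 and MET 1.73, each with that sign in 6 of 6 animals. The sign of their difference followed from these, so its test adds no separate support. The same edge minus center difference of PDGFRA and PDGFRB was -0.34 ± 0.09, below 0 in 6 of 6 animals (p = 0.0312, exact, adjusted p = 0.0417). The row named GALK2 against FGF10 had -0.84 ± 0.27 (p = 0.0312, exact, adjusted p = 0.0417). PDGFA against PDGFB had 0.13 ± 0.11, above 0 in 5 of 6 animals (p = 0.0625, exact, adjusted p = 0.0625).

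**Figure D4:**
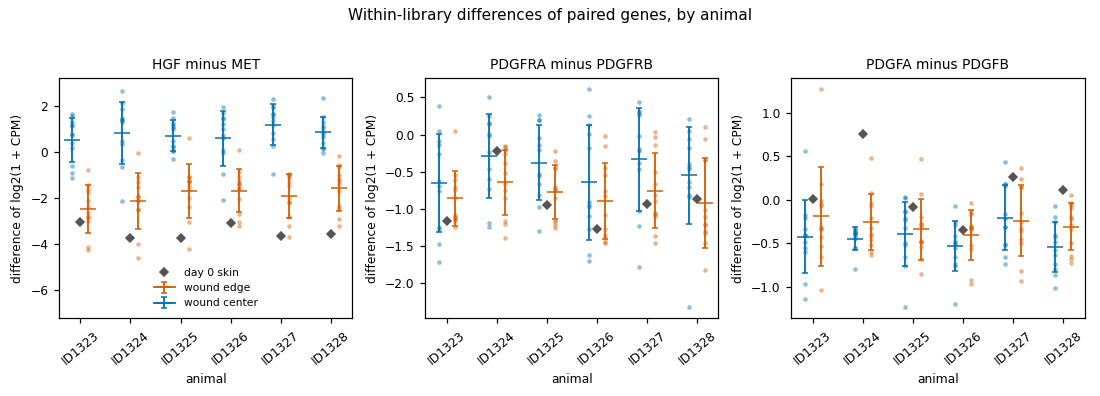
Difference of log2(1 + CPM) between the genes of 3 pairs in each library (points) of each of 6 animals, with mean and SD over the wounds of an animal (bars) at edge and center, and the day 0 skin of each animal (diamonds). HGF minus MET is lower at the edge than in the center in 6 of 6 animals, and PDGFRA minus PDGFRB likewise by a smaller step.

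The PDGF ligands were higher in the center, with small differences that held over many days. PDGFA, whose chain binds PDGFRA, held 24.8 to 35.2 CPM on day 0 with a median of 27.0. In the center of day 5 it held 51.7 to 59.7 CPM with a median of 56.0, and at the edge 31.2 to 47.2 with a median of 39.0. The locations did not overlap, and edge minus center was -0.53 ± 0.11 (adjusted p = 0.00214). It was called on 7 days, between -1.09 and -0.53, of which day 1 (0.0221) was lost without replicate 1 and day 16 (0.0338) without replicate 2 or 3. Relative to day 0, the center was higher on 13 days by 0.50 to 0.97. The calls of days 1, 15 and 19 were lost without single replicates (adjusted p up to 0.124), and those of days 1, 13, 15 and 19 with the animal as block (0.0655 to 0.14). At the edge it was higher on day 5 (0.38 ± 0.13, 0.024, lost without any 1 of 4 replicates) and lower on day 21 (-0.65 ± 0.13, 0.0045), and both calls were lost with the animal as block (0.112 and 0.0621). From day 7 to day 21 PDGFA fell at both locations, by -0.84 ± 0.19 in the center (0.0073) and by -0.80 ± 0.16 at the edge (0.0114, lost without replicate 3).

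PDGFB, whose chain binds both receptors and which endothelium and platelets are known to supply, held 20.6 to 31.8 CPM on day 0 with a median of 26.6. The day 6 center held 61.1 to 85.8 CPM with a median of 72.1 and the edge 24.2 to 59.2 with a median of 49.6, with no overlap. Edge minus center was -0.66 ± 0.19 on day 6 (adjusted p = 0.0294, lost without replicate 2, 3 or 4 and, at 0.0563, with the wound as block) and -1.11 ± 0.22 on day 1 (0.00167), and was called on 10 days between -1.12 and -0.54. The call of day 7 (-0.54 ± 0.20, 0.0474) was lost without any 1 of 5 replicates and that of day 16 without replicate 2 or 3. Against day 0 the center was higher on 13 days by 0.70 to 1.49 and the edge on 8 days, from day 3 to day 13, by 0.38 to 0.80. With the animal as a replicate block, 4 of these 8 edge calls remained (days 3, 5, 7 and 11) and the center call of day 19 was lost (0.0773). The edge call of day 11 was also lost without any 1 of 4 replicates. On day 21 the center had 0.43 ± 0.16 (0.051) and the edge -0.01 ± 0.16 (0.977).

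PDGFRA, a receptor typical of fibroblasts, had the largest rise of the 9 members above day 0. It held 56.5 to 85.9 CPM on day 0 with a median of 65.1. In the center of day 7 it held 385 to 959 CPM with a median of 754 (3.43 ± 0.24 on the log2 scale, adjusted p = 2.48e-08), and at the edge 179 to 305 with a median of 242 (1.82 ± 0.15, 1.93e-06). Center, edge and day 0 did not overlap. Edge minus center was called on 10 days, between -1.65 ± 0.37 on day 1 (0.00348) and -0.79 ± 0.23 on day 6 (0.034). The calls of days 4, 6 and 15 were lost without single replicates (adjusted p up to 0.217), and those of days 6 and 15 also with the wound as block (0.0533 and 0.0674). On days 19 and 21 it was 0.17 ± 0.23 (0.998) and -0.10 ± 0.25 (0.979). In the center PDGFRA rose by 1.53 ± 0.33 from day 1 to day 7 (0.00268) and fell by -1.96 ± 0.31 from day 7 to day 21 (0.000911), where it held 150, 170 and 172 CPM. From day 9 to day 19 it fell by -1.46 ± 0.28 (0.00775, lost without replicate 1). The center of day 21 was still above day 0, by 1.45 ± 0.14 (3.81e-05).

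PDGFRB, a receptor of pericytes and fibroblasts, had its highest mean level in the center of day 11 and was still above day 0 on day 21. Day 0 samples held 77.4 to 165 CPM with a median of 130. In the center of day 11 it held 584 to 1258 CPM with a median of 807, and at the edge 319 to 408 with a median of 354, again with no overlap among center, edge and day 0. Edge minus center was -1.12 ± 0.18 on day 11 (adjusted p = 0.000449) and was called on 9 days between -1.57 and -0.60. The calls of days 15 and 16 were lost without replicate 2 or 3. Against day 0 the center was higher on all 14 days by 1.33 to 2.72 and the edge on 13 days, from day 2, by 0.75 to 2.10, of which day 15 was lost without replicate 1 or 3 and with the animal as block (0.0517). On day 1 the edge had -0.21 ± 0.28 (0.559). From day 7 to day 21 the center fell by -0.62 ± 0.19 (0.025), lost without replicate 1, 2 or 3. From day 9 to day 19 it had -0.08 ± 0.16 (0.795).

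Days were compared only within the same animals, in 8 comparisons that gave the members 15 calls higher later and 14 lower. Calls in either direction came to 40.6% of all genes for day 7 against day 1 in the center, 21.3% for day 9 against day 2, 38.2% for day 21 against day 7 and 14.7% for day 19 against day 9. At the edge they came to 28%, 17.9%, 17.4% and 0% in this order. Of the 9 members, 5, 2, 6 and 3 were called in the center, and 8, 4, 1 and 0 at the edge. For the edge of day 19 against day 9, edgeR called 0 of 15091 genes, with 2079 at an unadjusted p below 0.05, while DESeq2 called 291 higher and 184 lower. From day 1 to day 7, FGF2 and FGF10 both went down in the center and both went up at the edge. FGF2 fell by -0.79 ± 0.27 in the center (adjusted p = 0.0308) and rose by 1.19 ± 0.37 at the edge (0.0301), and FGF10 fell by -1.53 ± 0.45 (0.0157) and rose by 1.94 ± 0.59 (0.0269). Each of these 4 calls was lost without 2 or 3 of the 6 replicates in turn, with an adjusted p up to 0.103. With the wounds of an animal summed, 7 of the 29 calls were lost, among them 3 of these 4, that of FGF10 in the center being the other. Of all genes called in the 8 comparisons, 53.4% were higher later, and with scaling by library size alone 31.4%, when the median log2 fold change of all genes lay between -0.26 and -0.12.

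Between genes, levels were compared per gene length as FPKM, in the medians of day 0, edge and center. FGFR2 had the highest median on day 0 with 41.0 FPKM, and fell behind the PDGF receptors in wounds, with 16.4 at the edge and 6.52 in the center. PDGFRB had 21.4, 60.9 and 93.4 FPKM and PDGFRA 9.75, 27.7 and 63.1. Among the member ligands found, PDGFB was the most abundant with 10.9, 14.8 and 24.2 FPKM, before PDGFA with 6.06, 6.39 and 9.93. The row named GALK2, with FGF7 as protein match, had 4.78, 15.0 and 45.1 FPKM, above PDGFB at the edge and in the center. Other ligands of these pathways were not ranked. FGF2 had 2.03, 2.25 and 3.73 FPKM, FGF10 1.10, 1.14 and 1.73, and HGF 0.460, 1.29 and 2.36. MET had 7.56 FPKM on day 0, 5.93 at the edge and 1.36 in the center.

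Levels of other cell types moved with several members, and their part was not tested. Over the 29 states, the mean log2(1 + CPM) of FGF10 and FGF2 had a Pearson r of 0.935 and 0.906 with log2(1 + median summed CPM) of the adipocyte list (8 of 9 genes found), whose summed level in the center went from a median of 10508 CPM on day 1 to 227 on day 21 and at the edge was 254 on day 1. This list had 666 CPM on day 0 (range 153 to 1782) and was higher in the center in 47 of 72 wounds. Within the 14 states of the center r was 0.955 for FGF10 and 0.937 for FGF2, and within the 14 of the edge 0.901 and 0.812. With the endothelium list FGF10 had 0.746 within the center and 0.753 within the edge, and FGF2 0.807 and 0.679. With the macrophage list FGF10 had 0.694 and 0.742, and FGF2 0.689 and 0.805. With the fibroblast list the values were negative, -0.848 and -0.337 for FGF10 and -0.791 and -0.462 for FGF2. MET had r of 0.930 with the keratinocyte list over the 29 states, 0.880 within the center and 0.214 within the edge, and FGFR2 had 0.802, 0.599 and 0.632. Other lists came near or passed these values. Over the 29 states FGFR2 had 0.788 with the hair follicle list, 0.730 with the Schwann cell list (5 of 5 genes) and -0.834 with the endothelium list. Within the edge the Schwann cell list had 0.768 with FGFR2 and 0.690 with MET. PDGFB had 0.945 with the endothelium list (10 of 10 genes), which was higher in the center in 71 of 72 wounds, with medians of 519 CPM on day 0 (range 382 to 604), 901 at the edge (range 248 to 1934) and 1589 in the center (range 844 to 2718). PDGFB had r of 0.827 with it within the center and 0.925 within the edge, and PDGFA 0.863 over the 29 states, 0.918 within the center and 0.652 within the edge. With the platelet list (6 of 6 genes) PDGFB had 0.406 over the 29 states, 0.507 within the center and 0.187 within the edge. HGF had 0.769 with the endothelium list over the 29 states, but -0.435 within the center and 0.686 within the edge. PDGFRA had 0.887 with this list over all states, 0.621 within the center and 0.852 within the edge. For PDGFRB the value of 0.770 over the 29 states was -0.0965 within the center and 0.731 within the edge. With the fibroblast list (10 of 10 genes) PDGFRB had 0.534 over all states, 0.755 within the center and 0.571 within the edge, and PDGFRA 0.148, 0.0287 and 0.00636. HGF had 0.475, 0.444 and 0.648 with this list, and 0.354, 0.123 and 0.697 with the list of pericyte and smooth muscle genes. With the list of pericyte and smooth muscle genes (10 of 10) PDGFRB had 0.383, 0.524 and 0.724, and PDGFRA 0.221, -0.0609 and 0.484. The lists are sums of CPM, so their most abundant genes weigh most. MCAM, a gene of this list, alone had 0.970 with PDGFRA over the 29 states. In the center libraries that stood apart with skeletal muscle genes this list held 2987 to 9890 CPM, against a center median of 1287. The macrophage list (10 of 10 genes) was higher at the edge in 8 of 72 wounds, with medians of 389 CPM on day 0 (range 248 to 494), 977 at the edge (range 316 to 2767) and 1899 in the center (range 815 to 3643). Its r over the 29 states was 0.846 with PDGFA, 0.855 with PDGFB and 0.806 with PDGFRA, within the center 0.738, 0.691 and 0.528, and within the edge 0.826, 0.613 and 0.488. The fibroblast list had medians of 60418 CPM on day 0 (range 39989 to 120181), 63623 at the edge (range 6220 to 189910) and 87532 in the center (range 13702 to 185155). These states share animals, libraries and depth, and the values of r are descriptions.

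**Figure D5:**
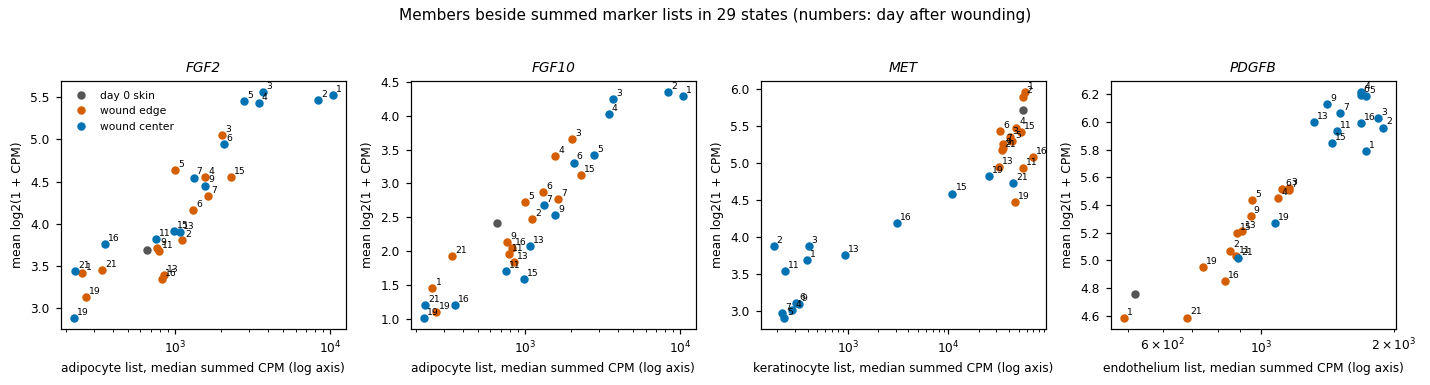
Mean log2(1 + CPM) of FGF2, FGF10, MET and PDGFB (vertical axes) against the median summed CPM of a marker list (horizontal log axes) in the 29 states, with the day after wounding beside each point. FGF2 and FGF10 climb with the adipocyte list at both locations, and MET falls into a low group of centers and a high group of edges joined by the late centers.

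The genes most like each member over the 29 states were named from 12723 genes by Pearson's r. MMD, SLC16A1 and SLC1A5 followed FGF2 (0.963, 0.953 and 0.946), and TMEM135, TRARG1 and ADCYAP1R1 followed FGF10 (0.972, 0.969 and 0.965). For FGFR2 they were NOTCH1, NDFIP2 and C13H3ORF52 (0.970, 0.969 and 0.969 in order), for HGF CLMP, PXDN and FNDC3B (0.952, 0.944 and 0.943), and for MET ZNF185 and KDF1 (0.981 and 0.966). PDGFA was followed by ECSCR, SWAP70 and PDGFB (0.939, 0.927 and 0.926), and PDGFB by VEGFC, FGD5 and RIPOR1 (0.963, 0.963 and 0.961). For PDGFRA they were ITGA5, MCAM and FES (0.970, 0.970 and 0.966), and for PDGFRB CACNA1C, TAMALIN and PXDN (0.977, 0.964 and 0.962). Among the members themselves FGF2 and FGF10 had r of 0.936, PDGFB and PDGFRA 0.932, HGF and PDGFRB 0.908, FGFR2 and MET 0.861, and FGFR2 and HGF -0.874.

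Of 39 other genes of these pathways 37 were found, and averaged over days 12 were higher at the edge, 15 higher in the center and 10 were not called, against 30.5% and 36.8% of all genes. The 8 with the largest difference were all higher at the edge. FGFBP1, which releases FGF from the matrix, led with a log2 fold change of 4.05 ± 0.34, and FGFR3, an FGF receptor of keratinocytes, had 3.49 ± 0.22. SPINT1 (3.76 ± 0.28) and SPINT2 (1.61 ± 0.09) encode inhibitors of the proteases that activate HGF, and ST14 (1.88 ± 0.12) encodes such a protease. MST1R, the receptor related to MET, had 2.76 ± 0.18, the hormone FGF21 1.19 ± 0.18 and the heparan sulfate carrier SDC1 1.01 ± 0.09. Their adjusted p were 6.63e-09 for FGF21 and at most 3.91e-19 for the others. In the wound center, FGFR3, FGF21 and SPINT2 were lower than day 0 on all 14 days and SPINT1 on 13. Named after their values were seen, FGFR1 and PDGFD were higher than day 0 in the center on all 14 days, with edge minus center of -0.63 ± 0.07 and -0.94 ± 0.08, and PDGFC was lower than day 0 at the edge on all 14 days and in the center on 10, with edge minus center of 0.03 ± 0.07 (adjusted p = 0.735). Within single days the pathway genes gave 463 results, of which 89 were higher at the edge and 65 higher in the center, against 12.5% and 11% of all tests.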

How the data were processed

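The members, pathway genes and marker lists were chosen with earlier results of these data known. The authors had the sequencing provider filter reads, align them and count them per gene, and deposited raw counts and FPKM. The FPKM values the authors deposited are scaled by gene length and depth. Aligner, counter and build are not given in the sources used here. Counts were tested in edgeR 4.0.16 (R 4.3.3) with TMM, filterByExpr (minimum count 10, minimum total 15), the quasi-likelihood test and Benjamini-Hochberg adjustment over all genes tested, called below 0.05: within each day, against day 0, between days of the same animals, and over all 14 days. FGF10 passed the filter on 13 days between edge and center, and the other members in all fits. Each day has wounds of 3 animals as replicates, and on 10 days each animal gave 2, so p-values partly measure the spread within animals. The main fits over all 14 days likewise took all samples of an animal as separate. Edge and center of the same animal and wound are paired by their labels, and their deviations from the state means had a mean r of 0.270, above 0 in 64 of 72 wounds. Errors are SE of the fit unless stated.

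Named besides the members are the 8 pathway genes with the largest called mean difference, and per member the 3 genes with a symbol and the highest r, among genes whose highest state mean was at least 5 CPM. One gene that this rule gives for MET is not reported here. Libraries stood apart by Dixon's ratio of their mean correlation with replicates. Alternatives were other size factors, library size alone, no filter, DESeq2 1.42.0, a replicate block, wounds summed per animal, all samples in one fit, each animal set alone, and leaving out replicates or the libraries apart. A pseudocount of 1 CPM was used on the log2 scale, with 0.5 as alternative. The fits were tested on simulated counts. Ratios and correlations were computed with scipy 1.17.1 and numpy 2.4.6 in Python 3.11.15. Total counts set a floor of 3 counts, which covers counting error only. Sequences of the genes were not used here.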

Additional observations from a re-analysis of the deposited data

Results flagged for a closer look

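Single samples lay far from the other 5 of their state, by Dixon's ratio above its critical value, in 21 of 210 groups of 6 samples, where chance gives about 10.5. The day 3 edge library of wound G of ID1325, which had few keratinocyte transcripts, had high FGF2 (68.7 CPM) and HGF (23.9 CPM). Its counterpart, the day 3 center library of wound G of ID1324, had low PDGFA (35.0 CPM) and PDGFRB (197 CPM). Also on day 3, PDGFB was high at the edge of wound F of ID1324 (61.3 CPM). The day 13 center of wound C of ID1327 had high PDGFA (119 CPM) and PDGFRB (995 CPM), and wound J of ID1328 had high PDGFRB at the edge of that day (485 CPM). On day 7, HGF was high in the center of wound E of ID1324 (58.9 CPM) and at the edge of wound H of ID1325 (20.6 CPM). At the edge of wound H of ID1323 on that day MET was low (20.9 CPM) and the row named GALK2 was high (89.4 CPM). FGFR2 was low in the day 0 skin of ID1326 (136 CPM), in the day 4 center of wound G of ID1326 (21.1 CPM) and at the day 9 edge of wound E of ID1328 (43.4 CPM). MET was high at the day 13 edge of wound C of ID1328 (40.2 CPM), PDGFA high at the day 1 edge of wound L of ID1323 (40.3 CPM) and FGF10 low at the day 4 edge of wound F of ID1328 (3.89 CPM). The row named GALK2 was high at the edge of wound F of ID1327 on day 4 (98.9 CPM) and of wound K of ID1328 on day 6 (123 CPM), and low in the day 11 center of wound C of ID1323 (15.6 CPM).

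The edge to center difference varied with day for MET (adjusted p = 3.91e-06, edgeR), HGF (0.000113), PDGFRB (0.00101), FGF2 (0.0145), PDGFRA (0.0245) and FGF10 (0.0291). Of these, PDGFRA was called in neither set of animals alone, and only MET was called in ID1326 to ID1328 alone. For FGF2, FGF10, PDGFRA and PDGFRB the call was also lost without single replicates. For MET the difference was largest on days 1 to 9, between 1.46 and 2.69 on the log2 scale, and for FGF10 and FGF2 on days 1 and 2.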

How the results depend on the processing

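No result changed direction while called under any alternative run. With the wound as replicate block, member calls within days came to 20 at the edge and 49 in the center, in which 5 calls were lost and as many gained. With the animal as replicate block, calls against day 0 came to 74 higher and 26 lower in the center and 42 higher and 17 lower at the edge. Between days the replicate block ended 1 of 29 calls, that of FGF2 in the center from day 7 to day 21 (adjusted p = 0.0778), with 15 higher and 14 lower in all. With the wounds of an animal summed, 5 of 69 calls within days, 0 of 109 in the center and 4 of 72 at the edge against day 0, and 7 of 29 between days were lost. Those within days were PDGFA on days 1 and 9, PDGFB on day 7, PDGFRA on day 9 and MET on day 11 (adjusted p from 0.0533 to 0.103). Those at the edge were FGF10 on days 1 and 4, MET on day 9 and PDGFB on day 11 (0.0608 to 0.128). Those between days were FGF2 from day 1 to day 7 at both locations and from day 7 to day 21 in the center, FGF10 at the edge from day 1 to day 7, and from day 2 to day 9 PDGFRA in the center and FGFR2 and MET at the edge (0.067 to 0.176). The number of members whose difference varied with day was 3 to 6 when replicates were left out in turn, and 1 in animals ID1326 to ID1328 alone. The calls lower later ranged from 8 to 14 without single replicates. Of 69 calls within days, 20 were lost without 1 or another replicate, of 109 in the center against day 0 it was 7, of 72 at the edge 12 and of 29 between days 13. Ratios lost their call in subsets too small to pass: without single animals (exact permutation p = 0.0625, the smallest of 5 animals) the edge minus center values ranged from -0.895 to -0.744 for the row named GALK2 against FGF10, from -0.361 to -0.317 for PDGFRA against PDGFRB and from -2.77 to -2.60 for HGF against MET. With animals ID1323 to ID1325 alone they were -0.850, -0.319 and -2.77, and with ID1326 to ID1328 alone -0.834, -0.351 and -2.59 (exact permutation p = 0.25, the smallest of 3). PDGFA against PDGFB passed on FPKM (0.159, exact p = 0.0312) and with 1 sign per wound in place of the replicate block by animal (0.131, permutation p = 0.00017). The latter takes wounds of the same animal as separate. On FPKM the other ratios were -1.92 for HGF against MET, -0.320 for PDGFRA against PDGFRB and -0.924 for the row named GALK2 against FGF10. The ratio of FGF7 to FGF10 could not be computed, and the GALK2 row, added after seeing the data, took its place. Low counts limit FGF10 most, with state medians down to 0.165 CPM.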
